A study of Mus musculus with 16 samples.

Results

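Small intestinal organoids were compared with and without Cul4b in the intestinal epithelium. Organoids are epithelial cultures that grow in Matrigel from isolated crypts, and they keep stem cells, Paneth cells and the absorptive and secretory lineages without other tissues. The comparison takes 4 of the 16 RNA-seq libraries of the series, namely WT replicates 1 and 2 and KO IEC replicates 1 and 2, chosen by their sample labels. All are labelled as C57BL/6 small intestine. Per the study's methods, KO IEC stands for pVillin-Cre; Cul4b fn/Y, in which Cre is driven by an epithelial promoter throughout the gut, and WT stands for Cul4b fn/Y without Cre, so both groups are described as carrying the floxed allele on a single X chromosome, which held for the replicate 1 libraries only, as given below. The methods call the replicates biological, but do not say which medium or passage the sequenced cultures came from, whether a replicate is one animal, or whether same-numbered cultures were grown together. P-values here measure the spread between these libraries. Reads were counted for 54532 genes, and the 13938 genes with enough counts were tested.

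CUL4B is the scaffold of a cullin-RING ubiquitin ligase, CRL4B, which joins the adaptor DDB1, a RING protein and a substrate receptor and marks proteins for degradation. At the crypt base, Wnt signals keep Lgr5-expressing stem cells dividing, and Paneth cells beside them secrete antimicrobial peptides and niche signals. The comparison asks which transcripts follow the loss of Cul4b when epithelium is cultured alone.

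Total counts were 15006730 to 16881395 per library, and a floor of 3 counts lay at 0.178 to 0.200 CPM, which is the count scaled to a common library total. Levels below are TMM-scaled CPM. Libraries went against the genotype in their description in one respect. Xist, the RNA that coats the inactive X chromosome of females, had 1 count in WT replicate 1 and 1 in KO replicate 1, but 7858 in WT replicate 2 and 6553 in KO replicate 2. The Y-linked Ddx3y, Eif2s3y, Kdm5d and Uty together took 185 CPM of the total in WT replicate 1, 186 CPM in KO replicate 1 and 0 in both replicate 2 libraries, while in the other 12 libraries of the series Xist was at 0 to 2.53 CPM and the Y-linked genes at 128 to 225 CPM. The replicate 2 libraries of both genotypes therefore did not match the Cul4b fn/Y description, and the replicate number also separates libraries by this pattern. KO replicate 2 stood furthest from the rest. Its log2 CPM correlated across genes at 0.948 to 0.955 with the other 3 libraries, against 0.968 to 0.983 among those 3. Most results are given below for both same-numbered pairs, KO minus WT of replicate 1 and of replicate 2. The value of a pair is also the result without the other pair. For some gene lists only counts or the median of the fit are given. All 10 epithelial markers were above 10 CPM in every library. Of 17 leukocyte markers 14 stayed under 1 CPM in every library, with a summed level of 87.1 and 114 CPM in WT and 43.9 and 137 CPM in KO, as did 12 of 14 fibroblast and muscle markers, with sums of 10.7 to 20.6 CPM.

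Cul4b (ENSMUSG00000031095, chromosome X of GRCm38, 38533274 to 38576196) was at 83.2 and 73.2 CPM in WT replicates 1 and 2 and at 1.69 and 1.76 CPM in KO replicates 1 and 2. Both KO libraries lay far below both WT libraries. The gene fell by 5.5 on the log2 scale (standard error 0.22, Benjamini-Hochberg adjusted p = 0.0311 in edgeR's quasi-likelihood test). It was the only gene of 13938 (percent called 0.00717) with an adjusted p under 0.05, with a replicate block as well (adjusted p = 0.0103, edgeR). At an unadjusted edgeR p under 0.05 there were 362 genes higher (2.6%) and 288 lower (2.07%), and with the block 429 (3.08%) and 431 (3.09%). DESeq2, fitted to the same counts, called 27 genes (0.194%, or 0.237% with the block), 4 of the 27 among the genes that were 2-fold higher in both pairs and 21 among those 2-fold lower. Both choices use the same libraries and the same 2-fold limit, so this overlap is no independent agreement. With 2 libraries a group, the smallest two-sided exact permutation p is 0.333. Apart from Cul4b, the genes below are therefore described by their values and by the agreement of both pairs. No other gene had an adjusted p under 0.856, or under 0.374 with the block (edgeR). Most named genes were chosen by their differences in these same libraries, so an unadjusted p of such a gene is no independent test.

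For the other scaffold and the adaptor of the ligase, the libraries of both genotypes overlapped. Cul4a, the paralogous scaffold, was at 111 and 105 CPM in WT and 112 and 110 CPM in KO. Ddb1, the adaptor, was at 584 and 633 CPM in WT and 592 and 636 CPM in KO. Of 19 tested CRL4 genes and partners, Cul4b was the only one that was 2-fold different in both pairs, while 15 were lower in pair 2 (median -0.32, against 0.02 in pair 1). Besides Cul4b, 2 of them were at least 2-fold lower in pair 2. One was Wdr77, a WD40 protein, at 39.0 and 39.7 CPM in WT, 38.8 CPM in KO replicate 1 and 15.8 CPM in KO replicate 2. The other was Dtl, a substrate receptor of CRL4 in S phase, at 44.5, 56.9 and 47.3 CPM in those 3 libraries and 7.97 CPM in KO replicate 2. Among the 6 tested neighbours within 1 Mb of Cul4b, log2 fold changes ran from -0.45 (Mcts1, a translation re-initiation factor, at 37.0 and 36.8 CPM in WT and 26.6 and 27.6 CPM in KO) to 0.14 (Lamp2, a lysosomal membrane protein), none with an adjusted p under 0.05 (edgeR). Medians over genes with a mean of at least 10 CPM were -0.01 to 0.04 in pair 1 and -0.02 to 0.06 in pair 2 over the 19 autosomes. On chromosome X the medians were 0.04 and -0.06.

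Both pairs shared a direction for 8067 of the 13938 tested genes (57.9%), of which 3993 were higher and 4074 lower in KO. Across genes the pair differences correlated at r = 0.22 (Spearman's rho 0.20), and among the 9386 genes with a mean of at least 10 CPM at r = 0.23. Genes within a pair share their libraries and are not independent, so this is a description. Pair 2 spread more widely, with a standard deviation of 0.77 on the log2 scale against 0.48 in pair 1. In pair 1 there were 252 genes at least 2-fold higher (1.81%) and 449 at least 2-fold lower (3.22%), and in pair 2 there were 644 (4.62%) and 1420 (10.2%). Genes at least 2-fold different in the same direction in both pairs, called genes that moved alike from here on, numbered 73 higher (0.524%) and 133 lower (0.954%), and 70 were 2-fold different in opposite directions (0.502%). The first 2 sets hold 57 and 100 protein-coding genes, and 20 pseudogenes are among the lower set. They are low in abundance, with a median of the mean level of 1.44 CPM for the higher and 2.03 CPM for the lower set, against 26.0 CPM for the other tested genes. Just inside the limit were Rftn2 (1.03 and 1.08 in pairs 1 and 2, log2) and Zfp503 (-1.0 and -2.8), and just outside were Anxa3 (1.29 and 0.97) and Sp5 (-1.42 and -0.99).

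**Figure D1:**
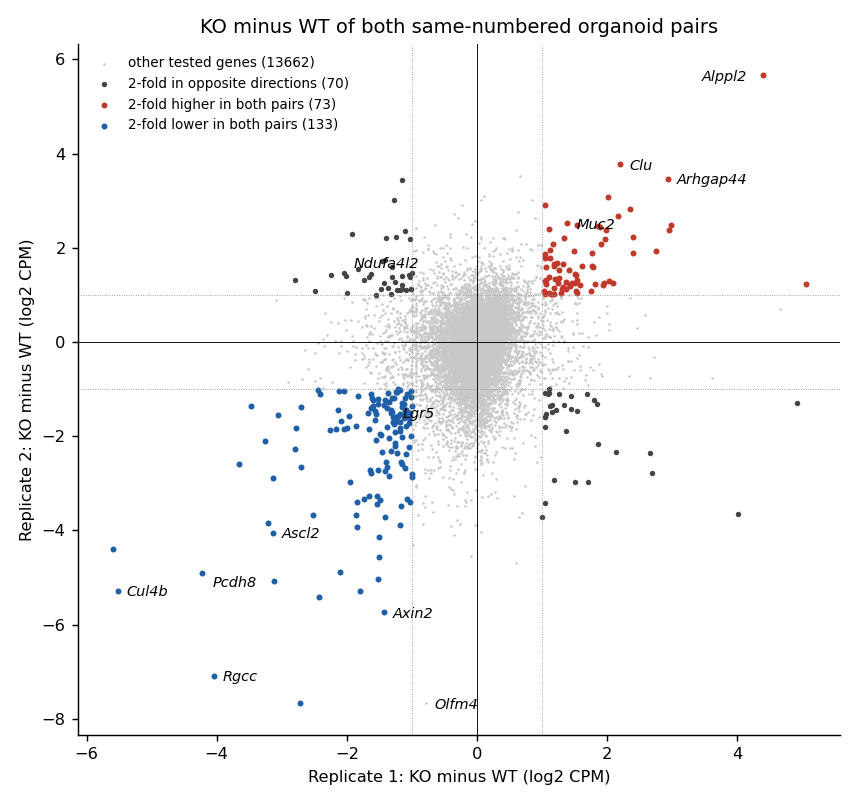
Each point is 1 of 13938 tested genes, with the KO minus WT difference in log2 CPM of replicate 1 on the x axis and of replicate 2 on the y axis; dotted lines mark a 2-fold difference. The 133 genes 2-fold lower in both pairs (blue) outnumber the 73 that were 2-fold higher (red), and Cul4b lies near -5.5 on both axes.

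Most genes of the intestinal stem cell were lower in KO in both pairs. The list holds 22 genes, all of them tested, and 20 were lower in KO in both pairs, where 29.2% of all tested genes were. In 19 of the 22 both KO libraries lay below both WT libraries (19.4% of all genes), and 7 moved alike, while none was higher in both pairs. The list's median log2 fold change was -1.27, against -0.01 over all genes, and its median was -0.64 in pair 1 and -2.07 in pair 2. The median was -0.78 without KO replicate 2 and -1.92 without KO replicate 1. In bulk samples, fewer cells of a type and less RNA per cell cannot be told apart.

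Ascl2, the transcription factor that sets stem cell identity in the crypt, was at 26.5 CPM in each WT library and at 2.89 and 1.49 CPM in KO, a log2 fold change of -3.59 (standard error 0.39, unadjusted p = 0.000276 and adjusted p = 0.856, edgeR). Lgr5, the R-spondin receptor that marks these cells, was at 190 and 227 CPM in WT and 77.8 and 70.0 CPM in KO (log2 fold change -1.50, standard error 0.18). Both KO libraries of either gene lay well below both WT libraries, close to each other for Lgr5 and nearly 2-fold apart for Ascl2. Other members separated the pairs. Axin2, a Wnt target and feedback inhibitor, was at 126 and 147 CPM in WT, 46.6 CPM in KO replicate 1 and 2.63 CPM in KO replicate 2. Olfm4, a secreted stem cell marker, was at 1761 and 2820 CPM in WT, 1019 CPM in KO replicate 1 and 13.7 CPM in KO replicate 2. Both KO libraries lay below WT for either gene, but the difference was -1.43 against -5.74 in pairs 1 and 2 for Axin2 and -0.79 against -7.67 for Olfm4 (log2). Igfbp4, which binds insulin-like growth factors, was at 89.6 and 181 CPM in WT and 39.3 and 12.2 CPM in KO, and Tnfrsf19, a receptor expressed in stem cells, was at 7.66 and 4.78 CPM in WT, 2.11 CPM in KO replicate 1 and 0 in KO replicate 2. Gkn3 and Nkd1 complete the 7. Sox9, a progenitor transcription factor, was at 64.1 and 75.0 CPM in WT and 43.1 and 22.8 CPM in KO. It differed less than Lgr5 in pair 1 but about as much in pair 2. Lrig1, a brake on EGF receptors, differed less than Lgr5 in both pairs, at 242 and 254 against 190 and 157 CPM.

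The wider Wnt list was less uniform. Of 26 tested ligands, receptors and targets, 11 were lower in both pairs (42.3%, against 29.2% of all genes) and 9 higher (34.6%, against 28.6%). The median was 0.03 in pair 1 and -0.69 in pair 2. Tcf7, a transcription factor of the pathway, was at 13.6 and 18.5 CPM in WT and 4.76 and 1.69 CPM in KO. Wnt3, the ligand that Paneth cells make, was at 8.52 and 8.23 CPM in WT and 4.88 and 2.43 CPM in KO. Sp5, another Wnt target, was at 11.6 and 13.5 CPM in WT and 4.28 and 6.75 CPM in KO. All 3 had both KO libraries below both WT libraries, as had 11 of the 26 listed genes (19.4% of all genes). In 7 of the 26 both KO libraries lay above both WT libraries (also 19.4% of all genes). Fzd5, a Wnt receptor of crypt cells, stood the other way, at 189 and 174 CPM in WT and 272 and 374 CPM in KO (log2 fold change 0.83, unadjusted p = 0.0120, edgeR). Ctnnb1, which encodes beta-catenin, was at 850 and 841 CPM in WT and 900 and 922 CPM in KO. Of 13 tested Notch pathway genes, 8 were lower in both pairs and none moved alike. Jag2, a ligand, was at 32.6 and 46.8 CPM in WT and 24.5 and 19.4 CPM in KO, while Hes1, the main Notch target, overlapped between genotypes.

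Paneth cell transcripts were lower in both pairs, and more so in pair 2. Of 24 listed genes 21 were tested and 19 were lower in both pairs, where 29.2% of all genes were. In 15 there was no overlap between genotypes (19.4% of all genes) and 4 moved alike (0.954% of all). At least 2-fold lower were 5 genes in pair 1 and 11 in pair 2, and the medians were -0.78 and -1.05. Defa20, an alpha-defensin, was at 40.9 and 47.1 CPM in WT and 15.9 and 11.4 CPM in KO (log2 fold change -1.69, standard error 0.25). Pla2g2a, a phospholipase gene, was at 7.89 and 10.1 CPM in WT and 1.26 and 0.675 CPM in KO. Ang4, an antimicrobial ribonuclease, was at 178 and 149 CPM in WT and 102 and 98.3 CPM in KO. Lysozyme (Lyz1), the most abundant of them, was at 818 and 1565 CPM in WT and 583 and 858 CPM in KO, so its groups overlapped, although KO was below WT within each pair. Defa29, an alpha-defensin that is not on the list, was at 15.5 and 12.5 CPM in WT and 1.51 and 2.84 CPM in KO. The alpha-defensins are near-identical copies, so the share of reads given to each is uncertain.

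A short motif was counted in the promoters of both gene groups. The core of the site bound by TCF and LEF factors, CTTTGA on either strand, was searched in the 250 bases before the start of each gene in RefSeq's promoter table (GRCm38.p6). It was present in 14.0% of the 27025 promoters of the table and in 10.9% of those of 9575 tested protein-coding genes. It was present in 14 of 76 promoters of genes that were 2-fold lower in both pairs (18.4%), 3 of 41 of those higher (7.32%), all 9 alpha-defensin promoters found and none of 15 on the stem cell list. Alpha-defensins are near-identical copies, so their promoters are not separate observations. The lower set includes Defa20, and its share without alpha-defensins was not counted. The promoters of Defa20, Ascl2 and Axin2 are shown because these genes moved alike, 1 as a Paneth cell gene and the others as stem cell genes. Capitals mark the motif, and Defa2 has the same 250 bases as Defa20.
Defa20 (chr8:21509008-21509257, plus strand): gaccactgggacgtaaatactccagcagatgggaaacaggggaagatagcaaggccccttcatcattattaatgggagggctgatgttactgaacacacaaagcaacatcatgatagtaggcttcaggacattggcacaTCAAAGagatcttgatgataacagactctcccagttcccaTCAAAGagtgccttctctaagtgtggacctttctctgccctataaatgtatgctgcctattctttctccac
Ascl2 (chr7:142969265-142969514, minus strand): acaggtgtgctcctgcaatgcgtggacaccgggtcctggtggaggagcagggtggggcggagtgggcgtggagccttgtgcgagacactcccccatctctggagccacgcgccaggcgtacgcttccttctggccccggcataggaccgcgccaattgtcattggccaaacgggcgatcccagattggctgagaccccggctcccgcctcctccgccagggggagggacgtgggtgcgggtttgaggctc
Axin2 (chr11:108920099-108920348, plus strand): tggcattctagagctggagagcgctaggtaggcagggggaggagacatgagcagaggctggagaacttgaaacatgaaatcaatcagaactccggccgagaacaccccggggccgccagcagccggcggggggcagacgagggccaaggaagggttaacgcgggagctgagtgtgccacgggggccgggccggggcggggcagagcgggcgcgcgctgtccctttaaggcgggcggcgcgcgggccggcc
A match is a description of letters, and none says only that these letters are not in this window.

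Outside these lists, the protein-coding genes lowest in both pairs were headed by Rgcc, a regulator of the cell cycle, at 44.9 and 53.7 CPM in WT and 2.59 and 0.270 CPM in KO (log2 fold change -5.07, standard error 0.87). Pcdh8, a protocadherin, was at 8.87 and 8.69 CPM in WT and 0.904 and 0.135 CPM in KO. Prelp, a leucine-rich matrix protein, was at 10.6 and 25.2 CPM in WT, 1.51 CPM in KO replicate 1 and 0 in KO replicate 2. None of the 3 overlapped between genotypes, nor did 129 of the 133 genes that moved alike lower (19.4% of all genes). This follows largely from how the genes were chosen. Rnf130, a ubiquitin ligase with a RING domain, was at 18.3 and 26.1 CPM in WT and 1.33 and 4.25 CPM in KO. Ptpro, a receptor tyrosine phosphatase, was at 12.6 and 15.5 CPM in WT and 2.83 and 0.405 CPM in KO, and Pla2g5, a secreted phospholipase, at 13.8 and 13.9 against 2.47 and 0.203 CPM. Fzd9, a Wnt receptor, was at 3.17 and 4.05 CPM in WT and 0.783 and 0.203 CPM in KO. Gm32742, a predicted gene, was at 33.2 and 47.3 CPM in WT and 6.81 and 13 CPM in KO, and Fggy, a carbohydrate kinase, and Esam, an adhesion molecule, were also among the lowest. A second identifier under the symbol Aldoa (ENSMUSG00000114515) is in this set at 0.608 to 3.11 CPM and lies directly beside the main gene, so its reads are uncertain.

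**Figure D2:**
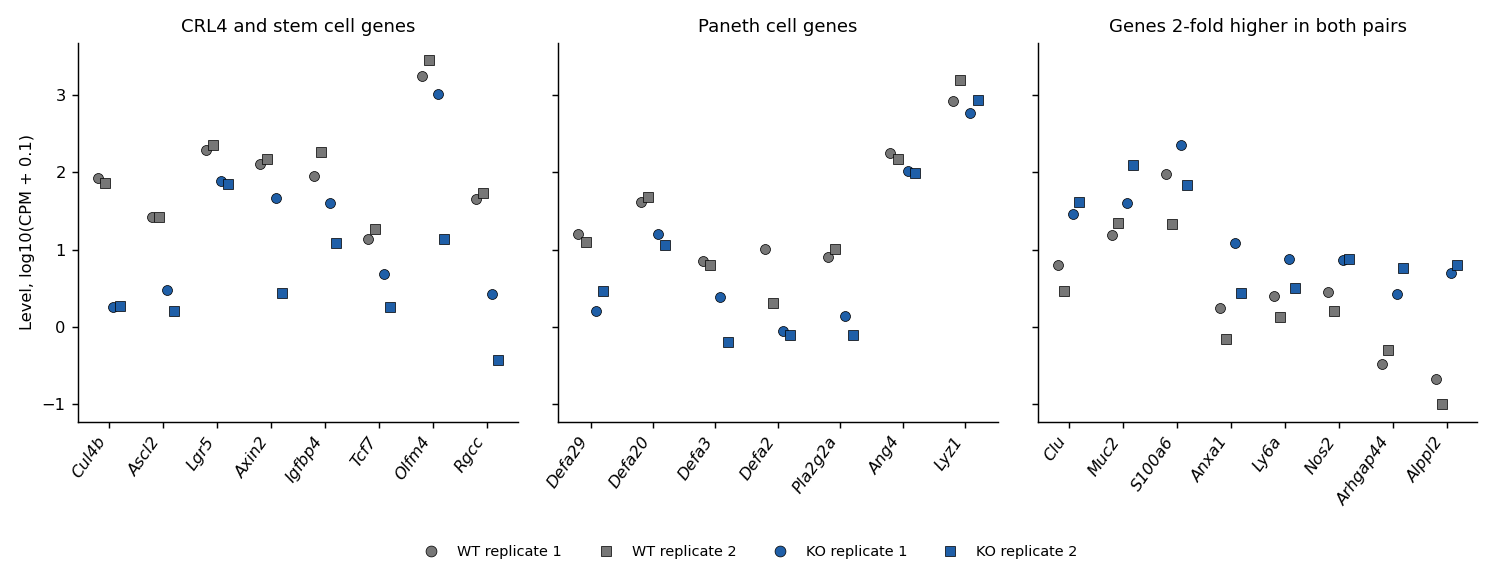
Levels as log10(CPM + 0.1) in each of the 4 libraries (circles, replicate 1; squares, replicate 2; grey, WT; blue, KO) for genes of 3 groups. KO replicates 1 and 2 are close for Cul4b, Lgr5 and Ang4, while for Axin2 and Olfm4 KO replicate 2 lies far below KO replicate 1, at 2.63 and 13.7 CPM.

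Among the genes that were higher in KO in both pairs, the largest difference was in Alppl2, an alkaline phosphatase, at 0.115 and 0 CPM in WT and 4.94 and 6.21 CPM in KO. Arhgap44, a GTPase-activating protein, was at 0.230 and 0.398 CPM in WT and 2.59 and 5.67 CPM in KO. Clu, the chaperone clusterin that marks revival stem cells of injured crypts, was at 6.22 and 2.85 CPM in WT and 29.0 and 40.7 CPM in KO (log2 fold change 2.93, standard error 0.45). No KO library of these genes overlapped WT, as in 67 of the 73 genes that moved alike higher (19.4% of all genes). This too follows largely from how they were chosen. Col4a1 and Col4a2, the paired collagen chains of basement membranes, were both in this set, Col4a2 at 0.346 and 0.199 CPM in WT and 1.99 and 1.96 CPM in KO. Serpinb5, an epithelial serpin, was at 1.04 and 0.996 CPM in WT and 3.86 and 3.24 CPM in KO. Ceacam10, a cell adhesion molecule, was at 1.61 and 3.25 CPM in WT and 6.21 and 18.6 CPM in KO, and Nos2, the inducible nitric oxide synthase, at 2.76 and 1.53 against 7.17 and 7.5 CPM.

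Clu belongs to the fetal-like and regenerative list, of which 27 of 28 genes were in the table and 22 were tested. In it 13 were higher and 3 lower in both pairs, 6 moved alike higher and none lower, and the medians were 0.37 and 0.34 in pairs 1 and 2. The median of the fit was 0.51, and 0.17 without KO replicate 1. For several members the difference within each pair was set against a large difference between replicate numbers. S100a6, a calcium-binding protein, was at 95.9 and 21 CPM in WT and 225 and 67.1 CPM in KO, so its groups overlapped, and its adjusted p was 0.856 without and 0.527 with the replicate block (edgeR). Anxa1, an anti-inflammatory annexin, was at 1.67 and 0.597 CPM in WT and 11.9 and 2.63 CPM in KO. Ly6a (Sca-1), a marker of regenerating epithelium, was at 2.42 and 1.26 CPM in WT and 7.47 and 3.11 CPM in KO. Il1rn, the interleukin 1 receptor antagonist, and Anxa8 also moved alike. Other members of the list were lower in both pairs, with Areg, an EGF receptor ligand, at 27.7 and 32.4 CPM in WT and 16.3 and 17.6 CPM in KO.

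Lists of other secretory lineages had medians above 0 in the fit, at 0.39 for goblet and 0.61 for enteroendocrine genes, against -0.74 for the Paneth cell list. Muc2, the main mucin of goblet cells, was at 15.1 and 21.7 CPM in WT and 39.9 and 125 CPM in KO (log2 fold change 2.16, standard error 0.58), the only one of 17 goblet cell genes that moved alike. Agr2, which folds mucins, was at 99.2 and 118 CPM in WT and 139 and 201 CPM in KO, whereas Fcgbp, a mucus protein, was at 1202, 1361 and 1294 CPM in WT replicates 1 and 2 and KO replicate 1 and at 5469 CPM in KO replicate 2. The median of the goblet cell list was 0.39, and 0.02 without KO replicate 2. Of 26 enteroendocrine genes 14 were higher and 2 lower in both pairs, 9 were lower in pair 1 and higher in pair 2, and none moved alike. The medians were 0.14 and 0.77 in pairs 1 and 2, and the median of the fit turned from 0.61 to -0.30 without KO replicate 2. Chga, a granin of hormone vesicles, was at 38.0 and 50.0 CPM in WT, 43.5 CPM in KO replicate 1 and 111 CPM in KO replicate 2. Of 24 intestinal transcription factors 14 were higher and none lower in both pairs, with medians of 0.22 and 0.48, and the median of the fit was 0.28, or 0.05 without KO replicate 2. Klf5, a crypt regulator, was at 354 and 361 CPM in WT and 483 and 648 CPM in KO, and Hnf4a, which drives enterocyte genes, at 1111 and 1054 against 1301 and 1334 CPM. Of 22 keratin and junction genes 15 were higher and none lower in both pairs. Krt20, a keratin of mature cells, was at 133 and 136 CPM in WT and 195 and 187 CPM in KO, and Tjp1, the tight junction scaffold ZO-1, at 121 and 117 against 168 and 178 CPM.

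In further lists the pairs parted for most genes. Of 20 lipid absorption genes 15 were lower in pair 1 and higher in pair 2, among them Fabp1, the fatty acid carrier, at 1160 and 1773 CPM in WT, 585 CPM in KO replicate 1 and 2280 CPM in KO replicate 2. Apob, the scaffold of chylomicrons, was higher in both, at 596 and 780 CPM in WT and 814 and 1428 CPM in KO. All of 13 tested tuft cell genes were higher in pair 2 and 12 of them were lower in pair 1, with medians of -0.56 and 0.83. Of 25 hypoxia and glycolysis genes 21 did the same, with medians of -0.46 and 0.47. Ndufa4l2, a hypoxia-induced mitochondrial protein, was at 8.58 and 8.69 CPM in WT, 1.99 CPM in KO replicate 1 and 24.1 CPM in KO replicate 2. Itga7, Htr6 and Btn2a2 also were 2-fold lower in pair 1 and 2-fold higher in pair 2, and Thpo and Serpinb9b were the reverse at no more than 1.75 CPM in any library. Gm47283 and Gm21887, which the table places on the Y and the X chromosome, were 2-fold higher in pair 1 and 2-fold lower in pair 2.

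**Figure D3:**
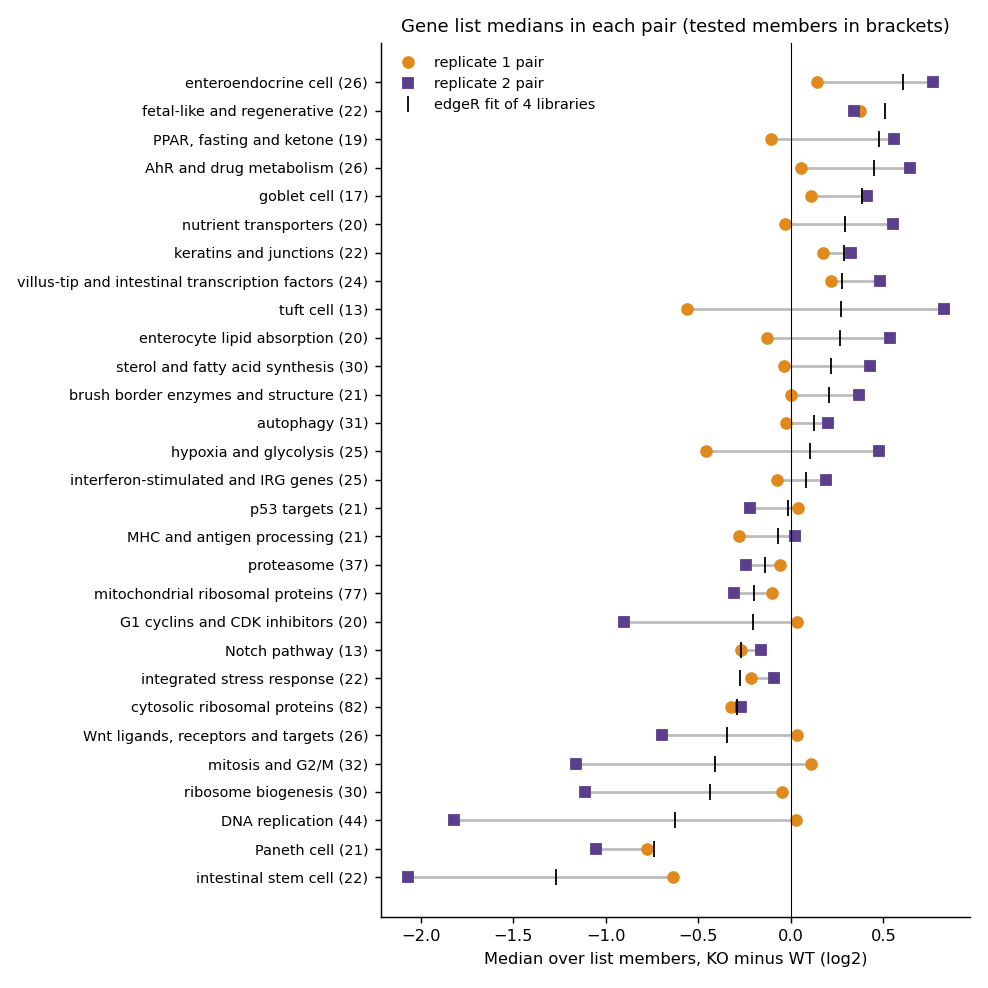
Median KO minus WT difference (log2) over the tested members of 29 gene lists in the replicate 1 pair (circles) and the replicate 2 pair (squares), with the median of the edgeR fit of all 4 libraries as a bar. Stem cell and Paneth cell genes lie left of 0 in both pairs, while tuft cell and hypoxia genes lie on opposite sides at -0.56 and 0.83 and at -0.46 and 0.47.

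Cell cycle and growth genes were lower in pair 2 without a like difference in pair 1. Every one of 44 DNA replication genes was lower in pair 2, and 42 were at least 2-fold lower, but 26 were higher in pair 1 and none was 2-fold lower there. The medians were 0.03 and -1.82 in pairs 1 and 2. All of 32 mitosis genes were lower in pair 2 and 23 of them were higher in pair 1, with medians of 0.11 and -1.16. All of 30 ribosome biogenesis genes were lower in pair 2 and 20 of them in pair 1 as well, with medians of -0.05 and -1.11. Pcna, the replication clamp, was at 272 and 284 CPM in WT, 255 CPM in KO replicate 1 and 137 CPM in KO replicate 2. Top2a, a topoisomerase of dividing cells, was at 481, 467 and 519 CPM in those 3 libraries and at 149 CPM in KO replicate 2, and Npm1, a nucleolar chaperone, at 838, 777, 727 and 329 CPM. KO replicate 2 was the one library that stood apart. Gins1, of the replicative helicase, was lower in both pairs, at 14.1 and 13.2 CPM in WT and 10.7 and 1.42 CPM in KO. Myc was at 116 and 147 CPM in WT and 87.5 and 33.4 CPM in KO. Rb1, the brake on entry into S phase, was at 60.1 and 63.9 CPM in WT and 108 and 100.3 CPM in KO (log2 fold change 0.75, standard error 0.15, unadjusted p = 0.00435, edgeR), with no overlap and little spread.

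Cytosolic ribosomal protein genes were slightly lower in both pairs. Of 82 tested genes 77 were lower in both (93.9%) and none higher, 74 had no overlap between genotypes (19.4% of all genes), and the medians were -0.32 and -0.27, although none moved alike at 2-fold. Rplp0, of the ribosomal stalk, was at 2952 and 2920 CPM in WT and 2579 and 2594 CPM in KO. Rpl22l1 was at 147 and 141 CPM in WT and 108 and 105 CPM in KO, and Rpl37 at 350 and 406 against 256 and 303 CPM. Rpl21 and Rps27a had larger differences, with Rps27a at 677, 239, 174 and 166 CPM in WT replicates 1 and 2 and KO replicates 1 and 2. Both have processed copies, so their reads are uncertain. Mitochondrial ribosomal protein genes were lower in both pairs in 59 of 77 (76.6%, against 29.2% of all genes), with medians of -0.10 and -0.30. Their median in the fit was -0.20, or -0.02 without KO replicate 2. Nuclear respiratory chain genes were lower in both pairs in 40 of 78 (51.3%, against 29.2% of all genes), with medians of -0.22 and -0.02. Mitochondrial RNA itself took 3.84 and 5.02% of counts in WT and 3.58 and 5.72% in KO.

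**Figure D4:**
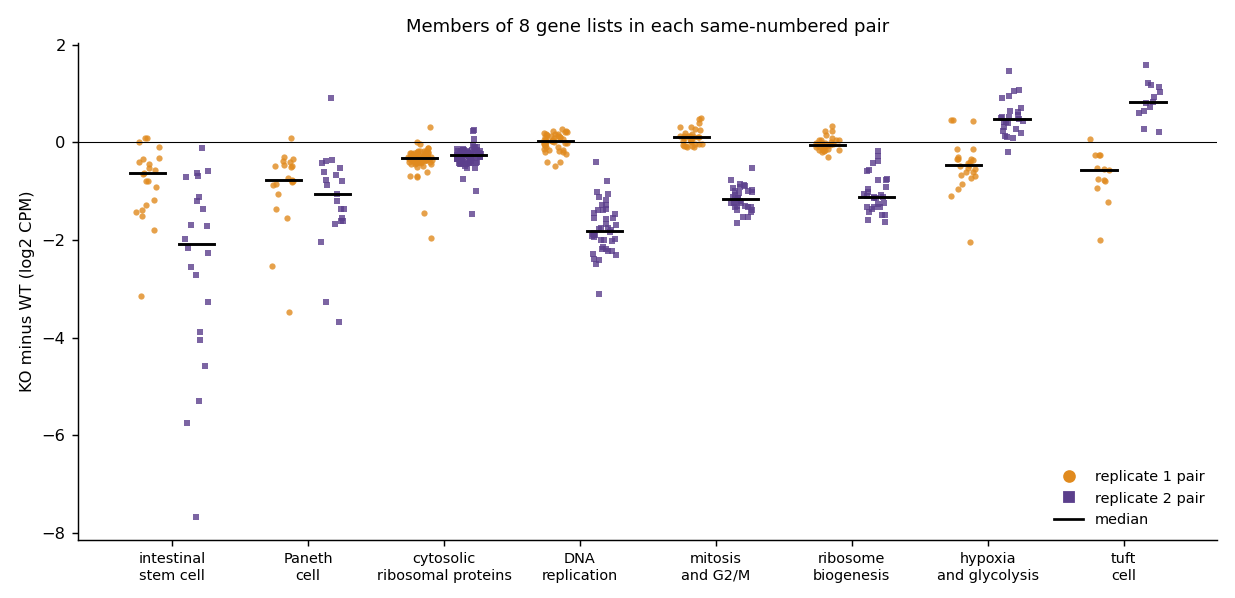
KO minus WT difference (log2 CPM) of each tested member of 8 gene lists in the replicate 1 pair (circles) and the replicate 2 pair (squares), with the median as a black bar. DNA replication genes have medians of 0.03 and -1.82, whereas cytosolic ribosomal protein genes have -0.32 and -0.27.

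Immune and stress lists differed in direction. Of 25 tested interferon-stimulated and IRG genes 7 were higher (28%, against 28.6% of all genes) and 8 lower (32%, against 29.2%) in both pairs. Irgm1, an interferon-inducible GTPase that the study examines, was at 24.0 and 23.2 CPM in WT and 16.6 and 20.7 CPM in KO. Rsad2 and Ifit1, antiviral effectors, moved alike lower at no more than 1.53 CPM. Of 21 MHC and antigen processing genes 3 were higher (14.3%, against 28.6% of all genes) and 10 lower (47.6%, against 29.2%) in both pairs. Both KO libraries lay below both WT libraries in 4 (19.4% of all genes) and above them in 0. The medians were -0.28 and 0.02 in pairs 1 and 2. The median of the fit was -0.07, but 0.12 without WT replicate 2, 0.19 without KO replicate 1 and -0.49 without KO replicate 2. H2-Ab1, an MHC class II chain, was at 8.06 and 16 CPM in WT and 1.39 and 7.83 CPM in KO. Of 17 chemokine and NF-kB genes 12 were higher in both pairs (28.6% of all genes were) and 2 lower, with medians of 0.17 and 0.42, and the median of the fit turned from 0.31 to -0.07 without KO replicate 2. The 21 p53 targets had medians of 0.04 and -0.22, the 22 integrated stress response genes -0.22 and -0.09, the 21 unfolded protein response genes 0.11 and 0.21, and the 31 autophagy genes -0.03 and 0.20. Of 26 genes of aryl hydrocarbon receptor targets and drug metabolism 14 were higher and 3 lower in both pairs, and the median of the fit was 0.45, or 0.12 without KO replicate 2. Ahr, the receptor, was at 31.1 and 28.1 CPM in WT and 47.4 and 53.1 CPM in KO, and its target Cyp1a1 was at 1.15 and 0 CPM in WT and 6.63 and 0.338 CPM in KO.

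Genes that moved alike were then read in the other experiments, KO against WT in the crypts (4 against 4 libraries) and in organoids with tamoxifen-inducible deletion from the CAG promoter, KO CAG (2 against 2), which share no library with these organoids. Cul4b was left out. Of the 132 lower genes 97 were tested in the crypts, and 80 of them had a negative fold change there (82.5%, against 51.1% of all genes), while 7 were called lower (7.22%, against 2.66% of all) and 2 higher. In KO CAG organoids 110 were tested, 66 were below 0 (60.0%, against 49.9%), 28 were called lower (25.5%, against 13.4%) and 16 higher (14.5%, against 18.1%). Of the 73 higher genes 57 were tested in KO CAG organoids, with 29 called higher (50.9%, against 18.1%) and 1 lower. In the crypts 42 were tested, with 2 called higher (4.76%, against 4.30%) and none lower. Lgr5 was lower in all 3 experiments, with log2 fold changes of -1.50 here, -0.74 in the crypts (adjusted p = 0.0379, edgeR) and -1.25 in KO CAG organoids (adjusted p = 9.27e-05, edgeR). Ascl2 was at -0.67 in the crypts (adjusted p = 0.0499, edgeR) and at 0.32 in KO CAG organoids (adjusted p = 0.161, edgeR). Clu was called higher in KO CAG organoids, at 2.22 (adjusted p = 0.00128, edgeR). Paneth cell genes differed between the models. Their median was -0.68 in the crypts, with none of 21 called, and 0.91 in KO CAG organoids, with 16 of 21 called higher and 1 lower. A test of the difference between both organoid models called 11 of 14957 genes (0.0735%), Ascl2, Pla2g2a, Ang4, Defa20, Defa34 and Areg among them.

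**Figure D5:**
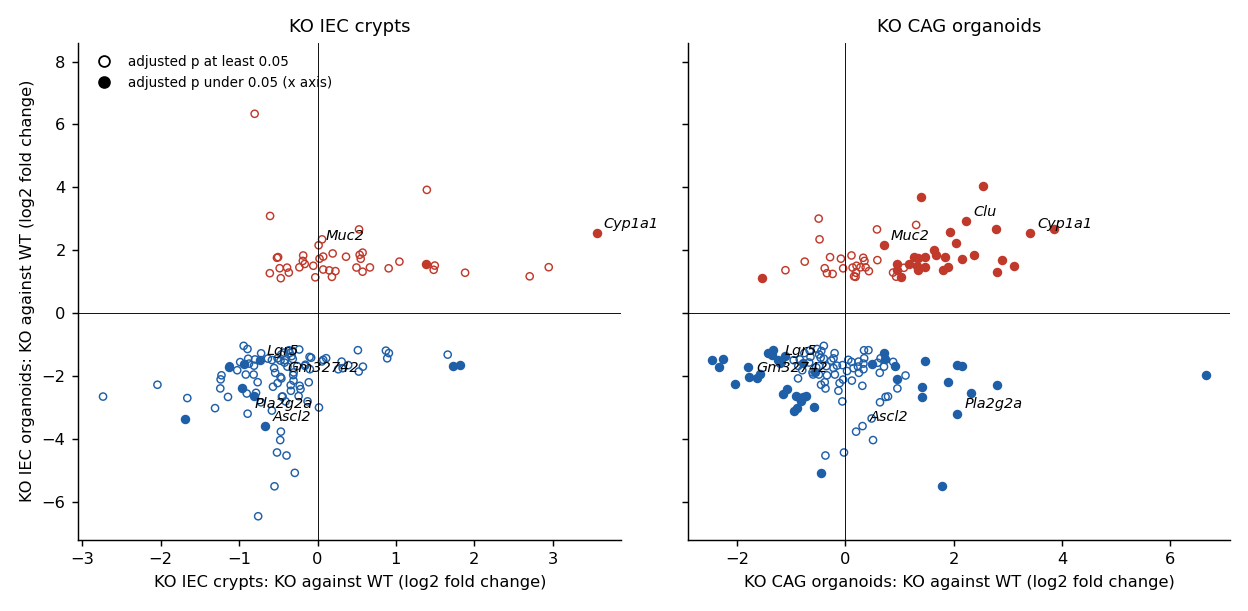
Log2 fold change, KO against WT, of genes that moved alike in the KO IEC organoids (y axis; red, higher; blue, lower) against the same in the crypts and in KO CAG organoids (x axes), with filled points for an adjusted p under 0.05 on the x axis. Of the red genes tested in KO CAG organoids 29 of 57 are called higher there, while Pla2g2a lies at -3.19 here and at 2.06 there.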

How the data were processed

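Each gene's value is a read count that the authors deposited without normalization, 1 column per library, with gene length and position beside it. Libraries were made and sequenced by Novogene. The submitters' processing notes name HISAT2 2.0.5 and featureCounts 1.5.0-p3. The genome build, annotation and strand setting are not given in the sources used here. Start and end of 53585 of 54495 genes (98.3%) equal those of GENCODE M21 on GRCm38.

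Genotype and replicate number came from the sample titles. Genes were filtered with filterByExpr, scaled with TMM and tested with edgeR 4.0.16 in R 4.3.3 (quasi-likelihood, Benjamini-Hochberg), KO against WT without a block. Called means an adjusted p under 0.05, with a fold of at least 2 for counts of genes in these organoids. Standard errors are the log2 fold change over the square root of F. Pair differences are log2 CPM with a prior count of 2. Intervals and floors cover counting error only. Scripts were tested on simulated counts. The alternatives were a replicate block, DESeq2 1.42.0, other scaling and filters, another prior count or fold, all 8 organoid libraries in 1 fit, and each library left out. Each pair alone was added after the data were seen.

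Members and gene lists were chosen with earlier results of these data known. Genes named are Cul4b, the 15 highest and 15 lowest protein-coding genes that moved alike (mean of at least 1 CPM, ranked by the smaller pair difference), the leading and the most abundant members of each list, up to 8 genes that moved in opposite directions, and genes that the study names. Anxa3, Rftn2 and Zfp503 are named for lying at the 2-fold limit, Lamp2 and Mcts1 as neighbours of Cul4b, and Defa34 by the test between models. Ang4, Dtl, Ly6a and S100a6 were chosen after their values were seen.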

Additional observations from a re-analysis of the deposited data

Results flagged for a closer look

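The effect of the deletion was compared between both organoid models as an interaction term in 1 edgeR fit of 8 libraries and 14957 genes, and 11 genes (0.0735%) had an adjusted p under 0.05. The models differ in Cre driver and in tamoxifen treatment, and they are separate experiments with no shared library. The replicate 2 libraries here also have Xist counts and none of Ddx3y, Eif2s3y, Kdm5d and Uty. These differences cannot be told apart. Values are the log2 fold change here minus that in KO CAG organoids.

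Of the 11 genes, 7 had a log2 fold change below 0 here and above 0 there. Ascl2 differed by -3.89 (adjusted p = 0.0375, edgeR). Of Paneth cell genes, Pla2g2a differed by -5.24 (adjusted p = 0.0231, edgeR), Ang4 by -2.65, Defa20 by -2.58 and Defa34, another alpha-defensin, by -2.21. Areg differed by -3.50 (adjusted p = 0.0199, edgeR) and Rnase1, a secreted ribonuclease, by -1.98. Sesn2, a p53 target, differed by -1.78 and Abcb1b, a drug efflux pump, by -4.83, both from a higher level in KO CAG organoids. The predicted genes 9130208D14Rik and Gm8979 differed by 2.04 and 2.94.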

How the results depend on the processing

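With 2 libraries a group, the number of genes called depends on the tool. Against 1 gene in the edgeR fit, 185 were called without a low-count filter, 27 by DESeq2's Wald test (adjusted p not given for 271 genes), 33 by DESeq2 with the replicate block and 2 (Cul4b and Ascl2) with all 8 organoid libraries in 1 fit. Leaving out 1 library, where the lone library is assumed to vary like the other group, gave 0 to 1118 calls, with 1118 without KO replicate 1, 6 without KO replicate 2 and 0 without either WT library. Cul4b kept its direction in every setting and had log2 fold changes of -5.60 to -5.40 when 1 library was left out, with adjusted p = 0.451 without WT replicate 1 and 0.230 without WT replicate 2 (edgeR). The cause was not tested.

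Genes that moved alike numbered 207 higher and 297 lower without a filter, 30 and 56 with at least 10 counts in every library, and 257 and 409 at a fold of 1.5. Pair 1 alone gave 252 and 449, and pair 2 alone gave 644 and 1420. The correlation of the pair differences was 0.119 without a filter. The median of 24 of 51 lists kept its sign in every setting, the stem cell and Paneth cell lists among them. Of the named genes that moved alike 47 of 48 kept their sign. They were chosen by their direction in these same libraries, so this was nearly fixed beforehand and is no support.

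Same-numbered libraries deviated together from their group means (correlation 0.342 across genes, 0.298 without the X and Y chromosomes), but the labels do not say what the number stands for. The replicate block called 1 gene, Cul4b (log2 fold change -5.50, adjusted p = 0.0103, edgeR), and left 429 higher and 431 lower at an unadjusted p under 0.05. Genes near 1 CPM rest on few counts, and 2-fold differences there are least certain.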

Other observations

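The following genes were chosen after their values were seen. At least 2-fold differences between replicates 2 and 1, alike in WT and KO, were found in 271 genes that were higher and 54 that were lower in replicate 2, of which 10 lie on the X and 5 on the Y chromosome. Gapdh, a glycolytic enzyme often used as a reference gene, was at 37.4 and 50.6 CPM in replicate 1 of WT and KO but at 453 and 543 CPM in the replicate 2 libraries. The main gene of Aldoa, another glycolytic enzyme, took 1755 to 2773 CPM of the total. Gapdh was counted low beside it, so its reads are uncertain, and whether its expression differed was not tested. Cyp2d34, a cytochrome P450, was at 1.73 and 2.41 CPM in replicate 1 and 33.2 and 38.3 CPM in replicate 2 of WT and KO. Cyp3a11, a drug-metabolising cytochrome, was at 112 and 153 CPM in replicate 1 and 419 and 586 CPM in replicate 2. Msln, mesothelin, stood the other way, at 16.1 and 56.1 CPM in replicate 1 and 3.12 and 4.25 CPM in replicate 2.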
